A study of Mus musculus with 3 samples.

Results

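The 36 genes described here encode the machinery that copies DNA and the proteins that switch it on, supply it and follow it through S phase. They were taken by name from a table of 20368 mouse genes measured in 14192 single cells, and all 36 were found in it. No measured value was used to choose them, but the list was drawn up with earlier results of these data known. The prefrontal cortex came from mice of both sexes on postnatal day 6, killed the same day after inhaling sevoflurane, a volatile general anaesthetic, at about 3%. All 3 libraries, made on the 10x Genomics Chromium platform, belong to that exposed group. There is no unexposed group in the samples used here, so each comparison is between cell classes inside exposed tissue, and no value below measures an effect of the anaesthetic. Whether each library came from its own animal or from a pool is not said in the labels. The p-values rest on how much class differences vary between these 3 libraries, pooled over all fitted classes. That scatter may be technical.

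DNA replication is prepared in G1, when CDC6 and CDT1 load the ring-shaped MCM2 to MCM7 helicase onto origins, a step called licensing. At the start of S phase cyclin E, with its kinase partner, and the E2F factors, which activate many of these genes, promote the switch. CDC45 and the GINS complex then turn the loaded helicase on, the primase and polymerases copy both strands, and PCNA, a sliding clamp loaded by replication factor C, holds them on the template. In the postnatal forebrain many glial precursors, neuroblasts, microglia and vascular cells are still dividing, whereas mature neurons and oligodendrocytes are not.

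Cells were put in a class when both genes of a marker pair were above 0. The pairs were Aqp4 and Gja1 for astrocytes, Pdgfra and Lhfpl3 for oligodendrocyte precursor cells (OPC), Dlx1 and Sp9 for neuroblasts of the inhibitory lineage, Mag and Mobp for oligodendrocytes, P2ry12 and Csf1r for microglia, Cldn5 and Flt1 for endothelium and Kcnj8 and Vtn for pericytes. Neuroblasts were divided by Insm1, a transcription factor of neuronal progenitors, into Insm1+ and Insm1- cells. After 287 suspected doublets (2.02%) were removed, 13905 cells remained: 3437 astrocytes, 2757 OPC, 1043 Insm1+ and 757 Insm1- neuroblasts, 1620 microglia, 761 endothelial cells, 844 pericytes and 27 oligodendrocytes, while 2118 fell in no class and 541 that met the rule of 2 or more classes were dropped. Separate marker lists followed the names: the summed level of a class's own list was 3843 to 4093 CPM in Insm1+ neuroblasts, 4826 to 5126 CPM in OPC, 8814 to 9376 CPM in astrocytes and 17130 to 17765 CPM in microglia, where CPM is corrected counts scaled to a fixed total per cell. Erythroid RNA was present in every class of the fit, from 1350 to 4341 CPM in Insm1+ neuroblasts up to 18427 to 22406 CPM in endothelium, and excitatory neuron markers summed to at most 10.9 CPM in any class and library.

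Libraries 1, 2 and 3 held 4775, 5134 and 4283 cells, with a median of 2603, 2502 and 2508 detected genes per cell. The deposited values were natural logs of depth-corrected whole counts, which summed to between 4422 and 8135 per cell; detected genes count values above 0. Of 14102 distinct barcodes, 90 occurred in 2 libraries and 0 in all 3.

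Promoters of the helicase genes, the clamp and the members that differed most between neuroblast classes are shown because E2F binding sequences are a known feature of S-phase genes. Each is the sense strand 5′ to 3′ of mouse build GRCm38.p6 from RefSeq, 250 bases before to 50 bases after the start site. Capitals mark 2 kinds of letters found by a search of both strands: the E2F 8-mers TTTCCCGC, TTTGGCGC, TTTCGCGC and TTTGCCGC, and CCAAT, the sequence read by NF-Y, which shows as ATTGG where it lies on the other strand. The windows are chr6:88898731-88899030 (minus strand) for Mcm2, chr1:20820263-20820562 (minus strand) for Mcm3, chr8:75109259-75109558 (plus strand) for Mcm5, chr1:128359656-128359955 (minus strand) for Mcm6, chr5:138171834-138172133 (minus strand) for the upstream of 2 Mcm7 starts, chr2:132253131-132253430 (minus strand) for Pcna, chr9:65890073-65890372 (plus strand) for Pclaf and chr12:24708004-24708303 (plus strand) for Rrm2.
Mcm2: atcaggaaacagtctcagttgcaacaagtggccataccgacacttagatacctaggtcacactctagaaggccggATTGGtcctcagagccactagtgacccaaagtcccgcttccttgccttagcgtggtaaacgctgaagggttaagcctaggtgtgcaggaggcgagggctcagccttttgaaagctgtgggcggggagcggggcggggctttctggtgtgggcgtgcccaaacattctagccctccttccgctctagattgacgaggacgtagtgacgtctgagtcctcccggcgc
Mcm3: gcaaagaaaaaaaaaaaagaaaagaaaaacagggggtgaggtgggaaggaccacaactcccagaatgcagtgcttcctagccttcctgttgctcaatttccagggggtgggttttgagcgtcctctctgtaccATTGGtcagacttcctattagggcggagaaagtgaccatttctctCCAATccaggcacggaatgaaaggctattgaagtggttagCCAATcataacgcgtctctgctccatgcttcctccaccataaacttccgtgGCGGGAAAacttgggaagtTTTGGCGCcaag
Mcm5: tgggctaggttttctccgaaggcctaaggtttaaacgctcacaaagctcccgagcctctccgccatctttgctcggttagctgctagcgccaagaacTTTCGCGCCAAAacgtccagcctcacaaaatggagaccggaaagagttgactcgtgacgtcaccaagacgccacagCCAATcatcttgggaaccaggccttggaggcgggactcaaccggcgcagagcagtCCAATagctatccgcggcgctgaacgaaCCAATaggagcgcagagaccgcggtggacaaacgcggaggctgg
Mcm6: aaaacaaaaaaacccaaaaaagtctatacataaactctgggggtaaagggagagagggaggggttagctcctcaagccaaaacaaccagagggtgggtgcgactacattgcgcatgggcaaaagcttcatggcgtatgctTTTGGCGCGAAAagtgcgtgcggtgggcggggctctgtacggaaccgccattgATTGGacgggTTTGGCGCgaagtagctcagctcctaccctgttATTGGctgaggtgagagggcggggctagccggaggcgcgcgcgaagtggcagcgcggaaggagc
Mcm7: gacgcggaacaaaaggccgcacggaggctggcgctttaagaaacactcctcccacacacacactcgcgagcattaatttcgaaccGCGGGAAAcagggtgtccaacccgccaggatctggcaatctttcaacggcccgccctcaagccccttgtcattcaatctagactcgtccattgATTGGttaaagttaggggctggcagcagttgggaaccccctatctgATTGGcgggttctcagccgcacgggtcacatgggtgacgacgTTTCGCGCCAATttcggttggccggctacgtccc
Pcna: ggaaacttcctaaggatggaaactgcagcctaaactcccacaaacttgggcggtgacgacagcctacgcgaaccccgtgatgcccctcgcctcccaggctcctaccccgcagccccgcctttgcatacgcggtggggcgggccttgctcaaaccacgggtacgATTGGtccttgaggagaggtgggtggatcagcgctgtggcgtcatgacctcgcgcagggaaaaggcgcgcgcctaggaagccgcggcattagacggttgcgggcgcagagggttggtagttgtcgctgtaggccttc
Pclaf: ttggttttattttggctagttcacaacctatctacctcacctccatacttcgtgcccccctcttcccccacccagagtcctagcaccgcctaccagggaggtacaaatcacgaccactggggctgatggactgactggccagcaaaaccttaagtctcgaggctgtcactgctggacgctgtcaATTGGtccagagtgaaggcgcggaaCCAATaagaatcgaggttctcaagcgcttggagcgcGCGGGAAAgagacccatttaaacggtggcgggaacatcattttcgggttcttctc
Rrm2: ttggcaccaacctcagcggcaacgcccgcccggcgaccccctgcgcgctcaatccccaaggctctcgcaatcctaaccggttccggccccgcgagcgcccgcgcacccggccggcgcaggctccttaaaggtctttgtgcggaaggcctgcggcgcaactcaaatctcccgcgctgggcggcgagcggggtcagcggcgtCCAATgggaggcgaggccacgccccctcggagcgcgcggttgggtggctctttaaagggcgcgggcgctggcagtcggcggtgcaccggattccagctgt
In these windows Mcm3, Mcm6 and Mcm7 each held 2 E2F stretches and Mcm5 and Pclaf 1, while Mcm2, Pcna and Rrm2 held none of these 8-mers and 1 CCAAT each. The window of the other Mcm7 start, not shown, held 0 E2F stretches and 1 CCAAT. An E2F stretch and a CCAAT can overlap, as in Mcm7, where both lie in 1 run of capitals. In GENCODE on GRCm38 the Rrm2 gene spans chr12:24708241-24714146 (plus strand), Pclaf chr9:65890237-65903266 (plus strand), Mcm6 chr1:128331590-128359664 (minus strand) and E2f1 chr2:154559407-154569892 (minus strand). With the first base of the transcript counted as 0, the E2F stretches began at -110 and -47 in Mcm6, at -165 and 16 in Mcm7, at -153 in Mcm5 and at -5 in Pclaf.

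Of the 36 members, 31 had a promoter in the RefSeq table, which does not list Ccne2, Mcm4, Gins2, Rfc2 and Tipin. An E2F 8-mer lay in at least 1 promoter of 14 of the 31 (45.2%), against 3.83% of the 14387 genes of the expression table that had a promoter and 2.60% of all 27025 genes. Among 48 other replication genes 17 held one (35.4%), and among 21 genes of G2 and mitosis 1 did (4.76%). CCAAT ran differently: it was found in 58.1% of members, 76.2% of the G2 and mitosis genes and 41.1% of all genes. These shares were not tested, and a match describes sequence, not binding.

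Most cells held RNA of few members. Over all 13905 cells the median was 3 of 36 members above 0 and the upper quartile was 6. The median was 9 in Insm1+ neuroblasts, 5 in microglia, 3 in OPC and pericytes, 2 in astrocytes, endothelium and Insm1- neuroblasts, and 1 in oligodendrocytes. Insm1+ neuroblasts spread widest, with quartiles at 3 and 20 members and a 95th percentile of 29, against 1, 4 and 9 in astrocytes. The median number of detected genes was 2210 in Insm1+ neuroblasts, 1892.5 in microglia, 2651 in OPC, 2462.5 in pericytes, 2762 in astrocytes, 2849 in endothelium and 1657 in Insm1- neuroblasts. The depth before correction is unknown, and its part in these counts was not tested.

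**Figure D1:**
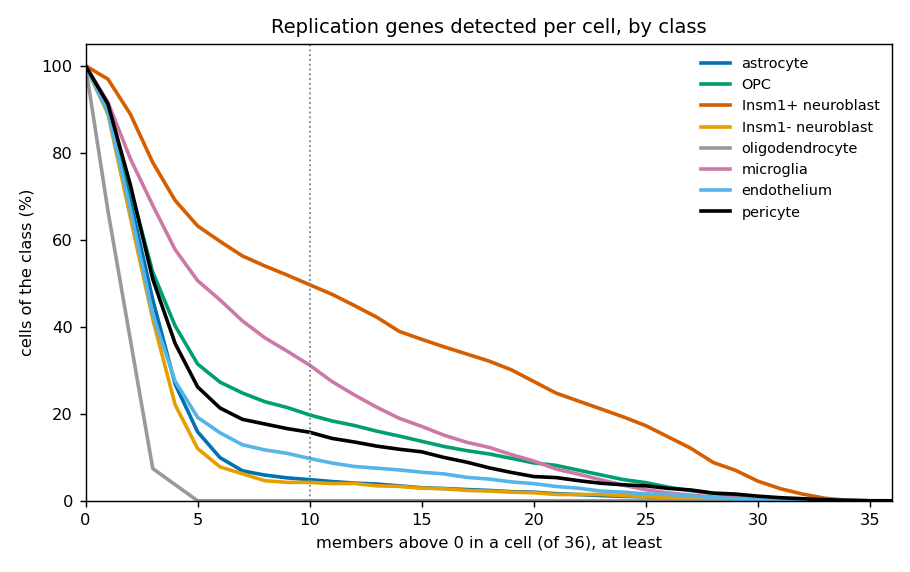
The share of cells (y axis, percent of the class) that had at least the number of members on the x axis above 0, over cells of all 3 libraries, with a dotted line at 10. The curve of Insm1+ neuroblasts lies above all others over most of the range, and the 27 oligodendrocytes end at 4 members.

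Cells with at least 10 members above 0 are called replication-high here; it is a range of a count and not a cell type, and 368 cells held 8 or 9 members and 345 held 10 or 11. In Insm1+ neuroblasts 53.1%, 53.8% and 36.04% of cells were replication-high in libraries 1, 2 and 3, a mean of 47.6% ± 10.1 (SD, n = 3 libraries). Library 3 stood below the others: its exact (Clopper-Pearson) 95% binomial interval was 29.7 to 42.7%, against 48.7 to 57.4% and 48.0 to 59.6%. In microglia the shares were 38.4%, 33.5% and 24.5%, a mean of 32.1% ± 7.07, again lowest in library 3. OPC varied less, at 17.97%, 20.4% and 20.8% with a mean of 19.7% ± 1.54.

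Pericytes had 15.8% ± 1.47 replication-high cells and endothelium 9.04% ± 4.25, with 9.89%, 12.8% and 4.42% in the 3 libraries. Astrocytes had 4.85% ± 0.996 and Insm1- neuroblasts 4.58% ± 2.56. Oligodendrocytes, which have left the cell cycle, gave 0 of 8, 0 of 8 and 0 of 11 cells, which allow shares of up to 37.5%, 37.5% and 27.3% as 3 counts of the total and 36.9%, 36.9% and 28.5% as exact (Clopper-Pearson) upper bounds, so their level of background is poorly known. Intervals and limits cover counting error only, and corrected counts are not reads. In every library Insm1+ neuroblasts ranked above OPC and OPC above pericytes, endothelium and astrocytes. Microglia ranked between Insm1+ neuroblasts and OPC in all 3 libraries, although their highest library, 38.4%, passed the lowest of Insm1+ neuroblasts. With a limit of at least 15 members, library 3 turned that order, with 14.04% in microglia and 14.6% in OPC. Astrocytes and Insm1- neuroblasts did not differ beyond their spread, and pericytes were above endothelium in each library, at 14.9% and 9.89%, 17.5% and 12.8%, and 15.04% and 4.42%. These shares are described without a test: for a pair of classes, a two-sided exact permutation test of 3 libraries against 3 cannot reach the threshold of 0.05.

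**Figure D2:**
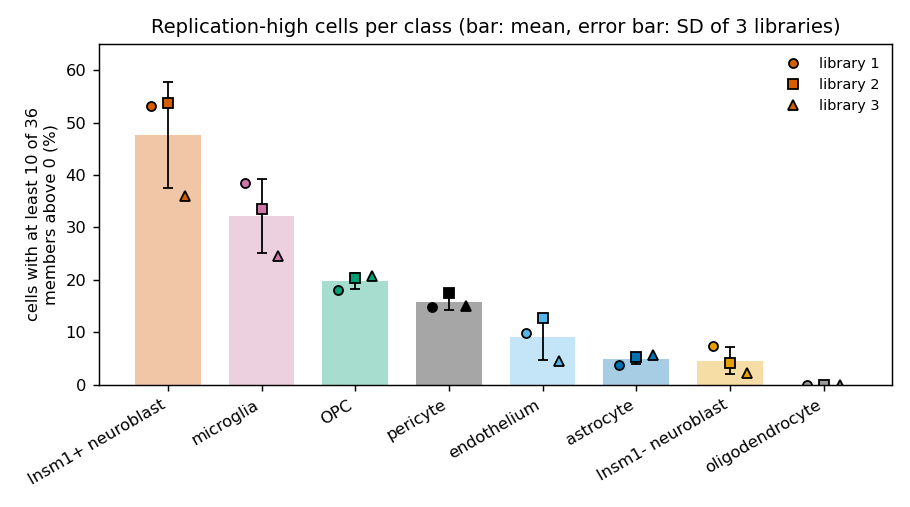
Share of each class's cells with at least 10 of 36 members above 0 (y axis, percent); bars are means, error bars the SD of 3 libraries, and circles, squares and triangles libraries 1, 2 and 3. Insm1+ neuroblasts lie at 36.04 to 53.8% and astrocytes at 3.72 to 5.603%.

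Because the classes differ in size, the 2464 replication-high cells came from many sources. OPC supplied 22.1% of them, Insm1+ neuroblasts 21.0%, microglia 20.5% and cells of no class 14.7%. Astrocytes made up 24.7% of all cells and 6.78% of the replication-high ones. Insm1+ neuroblasts made up 7.50% of all cells.

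Class means were then compared with a model fitted over 9626 genes in 7 classes and 3 libraries (limma on log2 of mean CPM + 10, library as a block, Benjamini-Hochberg adjusted p over all genes tested, threshold 0.05). Of the 36 members, 34 reached the 10 CPM that the mean of their class levels had to have. Cdc6, the licensing ATPase, and Mcm10, which helps to activate the helicase, did not and were not tested. Both were nonetheless highest in Insm1+ neuroblasts, at 16.2 ± 3.47 CPM for Cdc6 and 20.3 ± 5.76 CPM for Mcm10 (SD, n = 3 libraries). The filter is on a mean over classes, so a weak member could pass through its highest class alone. A class mean combines the share of cells in S phase with the level per cell, so replication-high and low cells were also read apart. Adding 10 CPM draws the fold of weak genes toward 0.

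Insm1+ neuroblasts exceeded Insm1- neuroblasts in all 34 tested members, against 25.3% of all genes called higher in that comparison; 0 were lower, where 9.84% of all genes were. The median log2 fold of the members was 1.69, and that of all genes tested was 0.09. Insm1- means only that Insm1 was not detected, in cells with a median of 1657 detected genes against 2210 in Insm1+ cells. The part of detection in these differences was not tested. Rrm2, the inducible subunit of ribonucleotide reductase, which makes deoxynucleotides, was at 697, 713 and 442 CPM in Insm1+ cells and at 85.4, 58.8 and 28.9 CPM in Insm1- cells of libraries 1, 2 and 3. The groups did not overlap, and library 3 was lowest in both classes. Its log2 fold was 3.27 (SE 0.21, limma adjusted p 5.59e-11). Pclaf, a PCNA-associated factor, was at 878, 912 and 519 CPM against 136, 111 and 24.6 CPM, again without overlap and lowest in library 3 on both sides (log2 fold 3.16, SE 0.28, limma adjusted p 1.08e-08). Mcm2, a helicase subunit, had 125, 131 and 110 CPM against 16.8, 5.62 and 9.36 CPM. Here the Insm1+ libraries lay close together, and the log2 fold was 2.72 (SE 0.16).

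By role, the 6 MCM subunits in that comparison ranged from a log2 fold of 0.90 for Mcm7 to 2.72 for Mcm2. Mcm7 was the exception among them because Insm1- cells also held much of it: 114, 104 and 90.7 CPM, against 228, 214 and 166 CPM in Insm1+ cells. Cdc45 (1.89) and Gins2 (1.39), the partners that activate the helicase, rose too. Among the synthesis genes, Pola1 and Prim1 of the polymerase alpha and primase complex had log2 folds of 1.39 and 1.62, Pold1, the catalytic subunit of polymerase delta, 1.23, and Pcna 1.70. Rfc2, a clamp loader subunit, had the smallest at 0.77. In the nucleotide supply group Rrm1 had 2.12, Tyms, which makes thymidylate, 2.14 and Dut, which removes dUTP, 1.87. Hells (2.36) and Uhrf1 (2.11), which act on DNA methylation at the fork, were larger than the histone chaperone subunit Chaf1b (1.20). E2f1, the transcription factor, was at 69.6, 61.5 and 47.3 CPM against 17.0, 13.0 and 8.95 CPM, a log2 fold of 1.60.

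OPC exceeded astrocytes in 31 of 34 tested members, where 39.5% of all genes were called higher, and fell below them in 1, where 19.8% of all genes were called lower. The median log2 fold of the members was 0.90, against 0.15 over all genes. Pclaf was at 116, 155 and 142 CPM in OPC and at 16.6, 26.0 and 28.9 CPM in astrocytes. Every OPC library was above every astrocyte library, with a log2 fold of 2.14 (SE 0.28, limma adjusted p 8.38e-07). Mcm6 gave 64.6, 68.8 and 69.8 CPM against 12.3, 12.6 and 11.8 CPM, a tight pair of groups (log2 fold 1.81, SE 0.16). Mcm2 (1.51), Lig1, the ligase that joins Okazaki fragments (1.50), Mcm5 (1.45) and Prim1 (1.39) followed.

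E2f1 went the other way. It was at 10.0, 14.7 and 14.4 CPM in astrocytes and at 7.91, 6.73 and 8.21 CPM in OPC. The groups did not overlap, but the lowest astrocyte library was near the OPC range. The log2 fold was -0.38 (SE 0.13, limma adjusted p 0.0147), and the call was lost without library 2 (limma adjusted p 0.198). Pola1 (log2 fold 0.28, limma adjusted p 0.0732) and Slbp, the histone mRNA binding protein (0.26, limma adjusted p 0.0885), did not pass; both passed when only the compared classes entered the fit (limma adjusted p 0.00161 and 0.00293). Slbp was already at 70.9, 69.6 and 72.6 CPM in astrocytes, against 72.7, 95.8 and 93.5 CPM in OPC.

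Microglia, compared with the same astrocyte values, were higher in all 34 tested members, where 24.2% of all genes were called higher, and lower in 0, where 50.3% were. The median log2 fold was 1.30, against -0.27 over all genes. Of the 6 helicase genes, 4 had log2 folds above 2, while Mcm7 had 1.54 and Mcm4 1.34. Mcm6 was at 157, 123 and 110 CPM in microglia (log2 fold 2.64, SE 0.16, limma adjusted p 7.13e-13). Mcm3 was at 158, 148 and 127 CPM in microglia and 16.9, 21.0 and 19.02 CPM in astrocytes, groups far apart, with a log2 fold of 2.41 (SE 0.16). Mcm5 (2.26), Mcm2 (2.14), Fen1, the flap nuclease of lagging strand synthesis (2.04), and Dtl, an adaptor that sends CDT1 for degradation (1.99), were next among the others, behind Pclaf (2.56). Tipin of the fork protection complex (0.44), Dut (0.48), Ccne1 (0.51) and Cdc45 (0.53) differed least. Dut was not called without library 1 or without library 2 (limma adjusted p 0.108 and 0.085), nor was Ccne1 without library 1 (limma adjusted p 0.0749).

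Endothelium was lower than pericytes in 26 of 34 tested members, where 38.7% of all genes were called lower, and higher in 0, where 23% of all genes were. The median log2 fold was -0.58, against -0.14 over all genes. Slbp was at 61.3, 71.2 and 38.0 CPM in endothelium and 165, 155 and 154 CPM in pericytes. Pericytes were above in each library, by a log2 fold of -1.36 for endothelium minus pericytes (SE 0.13, limma adjusted p 2.45e-09). Mcm7 was at 14.9, 11.6 and 5.02 CPM against 36.7, 45.5 and 35.2 CPM (log2 fold -1.29, SE 0.13), and Mcm4 at 20.6, 15.7 and 7.56 CPM against 38.9, 44.5 and 36.7 CPM (log2 fold -1.06, SE 0.15). The other helicase genes gave -0.64 for Mcm5, -0.44 for Mcm2, -0.21 for Mcm3 and -0.17 for Mcm6, of which the last 2 did not pass. The Mcm2 call did not hold without library 3: in library 1 endothelium was at 22.2 CPM and pericytes at 21.4 CPM, and without library 3 the log2 fold was -0.18 (limma adjusted p 0.443). It was also lost without library 2 (0.0657), with no filter on low values (0.054), with centring on the median gene (0.0735) and with stricter markers (0.0538), all limma adjusted p.

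Endothelial library 3 was the lowest of its class in most members. Without library 3, 19 members were lower, and with library 1 or 2 left out 22 or 23 were. The 8 members not called were Ccne1, Cdc45, Clspn, Dtl, Mcm3, Mcm6, Pclaf and Tyms. Pclaf was lower in each library without overlap (log2 fold -0.62, limma adjusted p 0.064). It passed when only the compared classes entered the fit (limma adjusted p 0.000765). Ccne1, Cdc45 and Clspn also passed under some alternatives. Summed erythroid markers were 18427 to 22406 CPM in endothelium and 2373 to 12500 CPM in pericytes, and their part in these differences was not tested.

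Insm1+ neuroblasts were also set against OPC, the other precursor class. They were higher in 31 of 34 tested members, where 22.6% of all genes were called higher, and lower in 0, where 42.6% were. The median log2 fold was 1.10, against -0.16 over all genes. Rrm2 led with 2.55 (SE 0.21, limma adjusted p 2.46e-10), from 697, 713 and 442 CPM against 77.2, 103 and 106 CPM. Pclaf (2.37), E2f1 (1.97), Mcm7 (1.77), Dut (1.73), Pola1 (1.60) and Cdc45 (1.50) came after it. The exceptions were the cyclins that start S phase. Ccne1 was at 17.4, 13.4 and 16.8 CPM in Insm1+ cells and 16.1, 18.6 and 22.2 CPM in OPC, and Ccne2 at 16.1, 13.0 and 17.6 CPM against 14.03, 23.8 and 19.2 CPM. Those groups overlapped, and neither passed (log2 folds -0.16 and -0.17, limma adjusted p 0.385 and 0.327). Fignl1, a DNA repair gene, also missed (0.32, limma adjusted p 0.0678). The calls of Mcm4, Gins2 and Ung, the uracil DNA glycosylase, were lost when library 1 or library 2 was left out, except that Ung kept its call without library 2. With both marker genes at a corrected count of at least 2, none of them was called. The log2 fold of Mcm4 was then 0.13 (limma adjusted p 0.544). Mcm4 and Gins2 were also lost with 1 CPM added, and Gins2 with no filter on low values and with no replicate block.

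**Figure D3:**
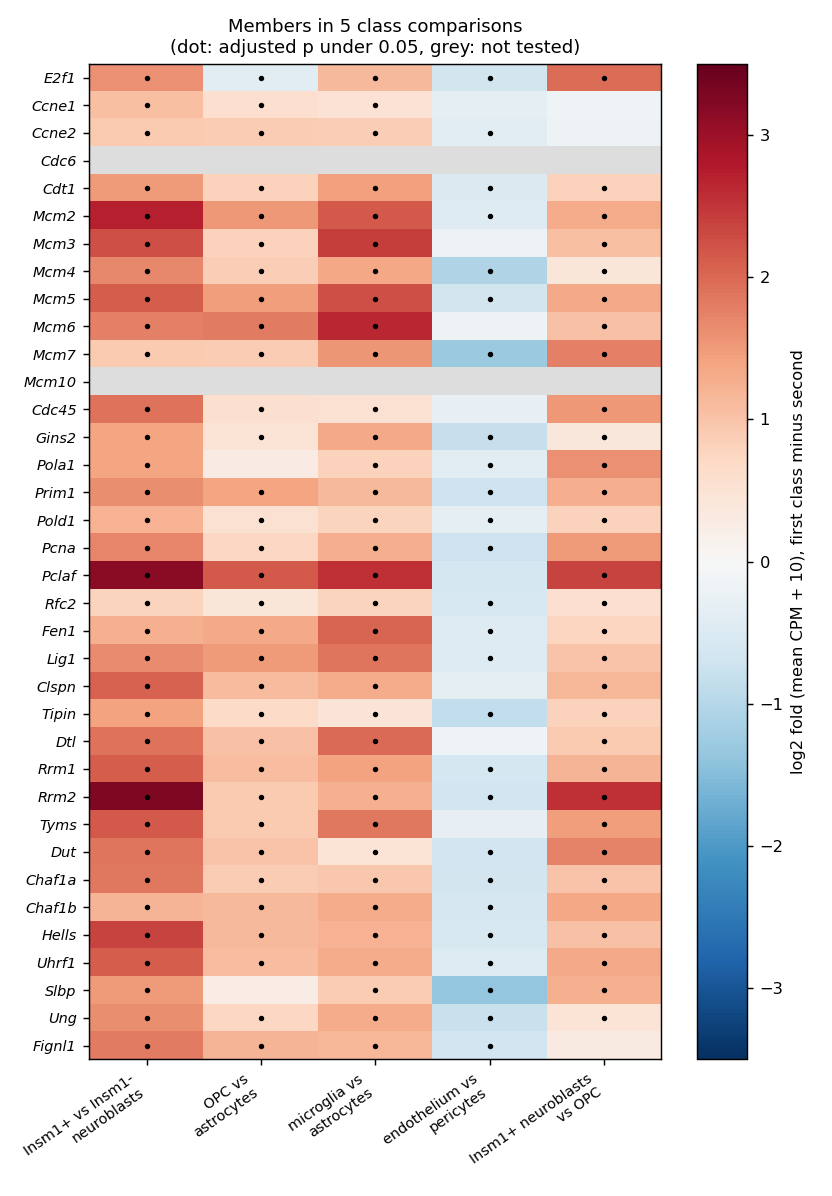
Log2 fold of mean CPM + 10, first class minus second (colour), for the 36 members ordered by role in 5 comparisons; dots mark a limma adjusted p under 0.05 and grey rows the 2 untested members. The column of endothelium against pericytes is blue throughout, and E2f1 is the blue cell with a dot under OPC against astrocytes.

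Astrocytes, OPC and Insm1+ neuroblasts each stand in 2 of the 5 comparisons, which are therefore not independent of each other. Centring each class mean on its median gene moved the all-gene median by -0.22, -0.13, 0.37, 0.11 and 0.34 in the order given above, and with it the calls over all genes. They went from 2437 higher and 947 lower to 1078 and 2783 between the neuroblast classes, from 3799 and 1909 to 2816 and 2457 for OPC against astrocytes, from 2325 and 4845 to 3933 and 3095 for microglia, and from 2172 and 4101 to 4227 and 2588 for Insm1+ neuroblasts against OPC. Relative to the median gene 34 members were still higher in Insm1+ than in Insm1- neuroblasts, 30 were higher and 1 lower in OPC, 34 higher in microglia, 20 lower in endothelium and 32 higher in Insm1+ neuroblasts than in OPC. No called member changed direction.

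The level of each member was also read in cells with at least 10 of the other members above 0 and in cells with at most 2. The member itself did not enter the choice, but the same cells supply both measures, so these values are descriptions without a test. They do not rank how tightly members followed each other, and a correlation across cells, given further below, ordered some of them differently. Cdc6 was above 0 in 17.1% of the first cells and 0.0933% of the second. Clspn, which relays checkpoint signals at the fork, was above 0 in 40.4% against 0.744%, Pclaf in 76.0% against 4.44%, and Rrm2 in 76.1% against 5.28%. Most of their RNA lay in cells with at least 10 other members: 95.3% of all Cdc6 corrected counts, 89.0% of Clspn, 86.5% of Rrm2 and 84.6% of Pclaf.

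Other members were spread more evenly. Rfc2 was above 0 in 67.5% against 18.98% of cells, and its mean level was 4.31 times as high in the first cells as in the second. The ratios for Slbp and Tipin were 5.96 and 6.62, with 76.6% against 23.8% and 79.3% against 20.3% of cells. Pcna (10.9), Dut (9.45) and Mcm7 (8.91) were also low, while the median over members was 23.6. Only 46.0% of Rfc2 counts lay in cells with at least 10 other members. The cells differ in depth as well, with a median of 2320 detected genes in cells with 0 to 2 members, 2677 with 10 to 19 and 3048 with 20 or more, and the part of that difference was not tested. The median ratio was 21.3, 21.6 and 24.8 in libraries 1, 2 and 3 taken alone.

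**Figure D4:**
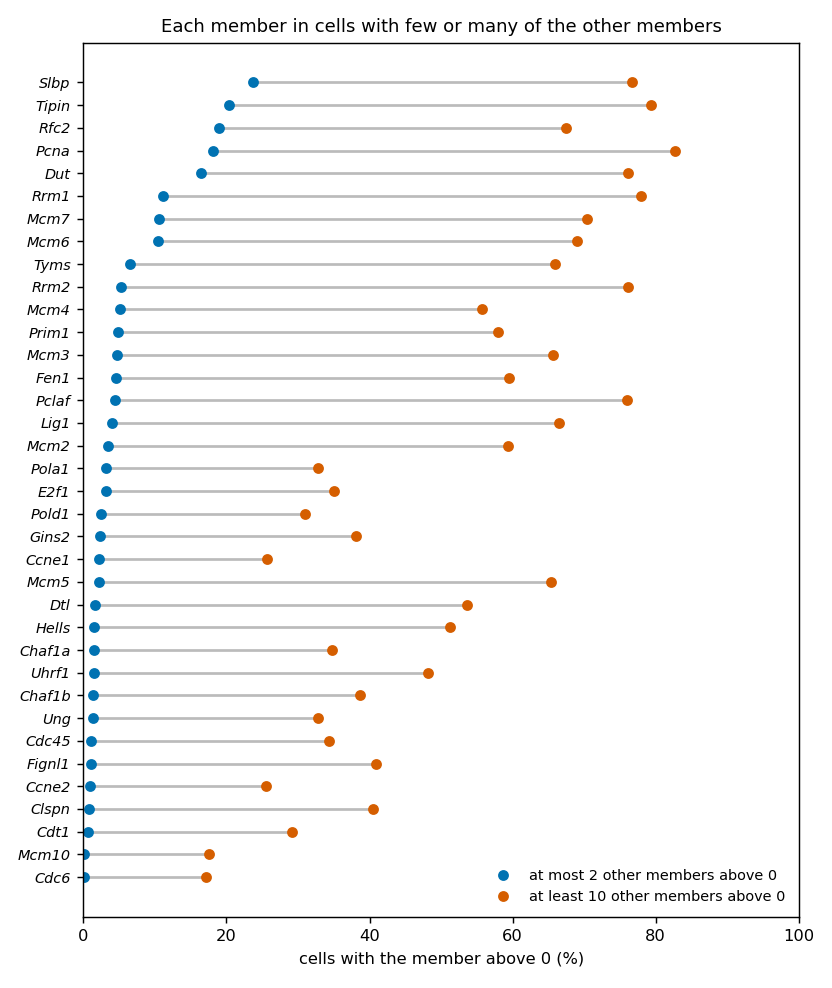
Share of cells with each member above 0 (x axis, percent) among cells with at most 2 (blue) or at least 10 (orange) of the other members above 0, all libraries together; members are ordered by the blue value. Slbp, Tipin, Rfc2 and Pcna have the highest blue points, at 18.2 to 23.8%, and Cdc6 and Mcm10 lie near 0.

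Where few other members were on, some members still differed between classes. Mcm6 was at 96.4, 92.3 and 83.2 CPM in endothelial cells with at most 2 other members and was above 0 in 43.8% of those 498 cells. In pericytes of that kind it was at 68.8, 89.3 and 54.1 CPM, and in astrocytes at 4.09, 4.77 and 6.28 CPM. The class means of the other low cells were 21.5 CPM in Insm1- neuroblasts and in microglia, 18.4 CPM in Insm1+ neuroblasts and 15.3 CPM in OPC, and every vascular library lay above every library of these classes. The endothelial level hardly differed from that in replication-high endothelial cells, 104 ± 9.56 CPM (SD, n = 3 libraries), against 90.6 ± 6.76 CPM in the low ones. The other MCM genes did not share this: Mcm2 was at 6.46 ± 1.85 CPM, Mcm5 at 3.41 ± 3.13 CPM and Mcm7 at 1.798 ± 1.21 CPM in the low endothelial cells.

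Mcm7 showed a different pattern. Its level in low cells was 122, 105 and 73.1 CPM in Insm1- neuroblasts and 102, 80.3 and 62.7 CPM in Insm1+ neuroblasts, and it was above 0 in 28.7% and 28.0% of them. All other classes were lower, at 11.97 to 17.6 CPM in OPC, astrocytes, microglia and pericytes. Slbp was highest in low pericytes, at 90.3, 95.3 and 92.4 CPM, against 31.4 to 60.8 CPM as class means elsewhere. Low microglia held more Pclaf (45.9 ± 2.28 CPM) and Mcm3 (35.7 ± 8.28 CPM) than the low cells of the other classes, where class means were at most 21.4 and 16.4 CPM. E2f1 was at 15.5 ± 3.37 CPM in low microglia, 10.0 ± 2.49 in low Insm1+ neuroblasts and 9.61 ± 1.46 in low astrocytes, but 1.11 ± 0.665 in low OPC, 0.830 ± 0.757 in low pericytes and 0.712 ± 0.630 in low endothelial cells.

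Replication-high cells of different classes did not carry the members in equal amounts. For each member these are again cells with at least 10 others above 0, read per class and library; Insm1- neuroblasts had 18, 5 and 9 such cells and were left out, and endothelial library 3 had 8. Rrm2 was at a mean of 1249 ± 47.6 CPM in Insm1+ neuroblasts, against class means from 339 to 482 CPM in the other 5 classes. Pclaf was at 1527 ± 106 CPM there, 868 ± 95.6 in endothelium, 779 ± 24.1 in pericytes, 597 ± 72.8 in OPC, 400 ± 25.2 in microglia and 348 ± 47.6 in astrocytes. Dut was at 648 ± 30.4 CPM in Insm1+ neuroblasts and lowest in microglia, at 156 ± 22.3 CPM. The library ranges of Insm1+ neuroblasts lay above those of all other classes for these 3 members. Cells above the limit held unlike numbers of members, however. In Insm1+ neuroblasts 286 of 518 replication-high cells held 20 or more members, against 240 of 544 in OPC and 148 of 505 in microglia. As a share of the summed CPM of all members, Pclaf was 16.3% in Insm1+ neuroblasts and 15.9% in endothelium. Rrm2 was 13.2% against 5.43 to 9.53% in the other classes, and Dut 6.83% against 2.78 to 4.72%. The classes also differed in the share of replication-high cells with at least 10 of 25 G2 and mitosis genes above 0. It was 69.3% in Insm1+ neuroblasts, 71.6% in endothelium, 44.9% in OPC and in astrocytes, 43.6% in pericytes and 33.9% in microglia. The part of the member number and of this mix in these levels, and in those of the next paragraph, was not tested.

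The cyclin E genes and a GINS subunit gene had their lowest class mean in the same neuroblasts, though not always apart from other classes. Ccne1 was at 34.8 ± 11.02 CPM and Ccne2 at 33.6 ± 11.4 CPM in replication-high Insm1+ neuroblasts, against 73.4 ± 9.64 and 83.2 ± 18.4 CPM in OPC. For Ccne1 the libraries of Insm1+ neuroblasts, at 24.9 to 46.7 CPM, overlapped those of endothelium (38.1 ± 17.02 CPM), microglia (44.4 ± 5.29 CPM), pericytes and astrocytes. For Ccne2 the highest Insm1+ library, 46.2 CPM, was just below the lowest microglial one, 46.7 CPM. Ccne2 reached 107 ± 28.3 CPM in pericytes. Gins2 also had its lowest mean in Insm1+ neuroblasts, at 61.5 ± 3.72 CPM, and its highest in pericytes, at 112 ± 11.8 CPM. Neither stood apart. Endothelial library 3, at 55.7 CPM, was below the Insm1+ libraries, and astrocytes (107 ± 15.4 CPM) and microglia overlapped pericytes. E2f1 was at 34.0 ± 6.74 CPM in OPC, below the 112 ± 7.01 CPM of Insm1+ neuroblasts and the 66.3 ± 10.5 CPM of astrocytes but overlapping endothelium, at 43.6 ± 19.8 CPM with library 2 at 24.5 CPM. Mcm3 peaked in microglia, at 301 ± 10.9 CPM against class means of 154 to 221 CPM, and Slbp in pericytes, at 444 ± 15.6 CPM, near the 416 ± 27.8 CPM of Insm1+ neuroblasts.

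**Figure D5:**
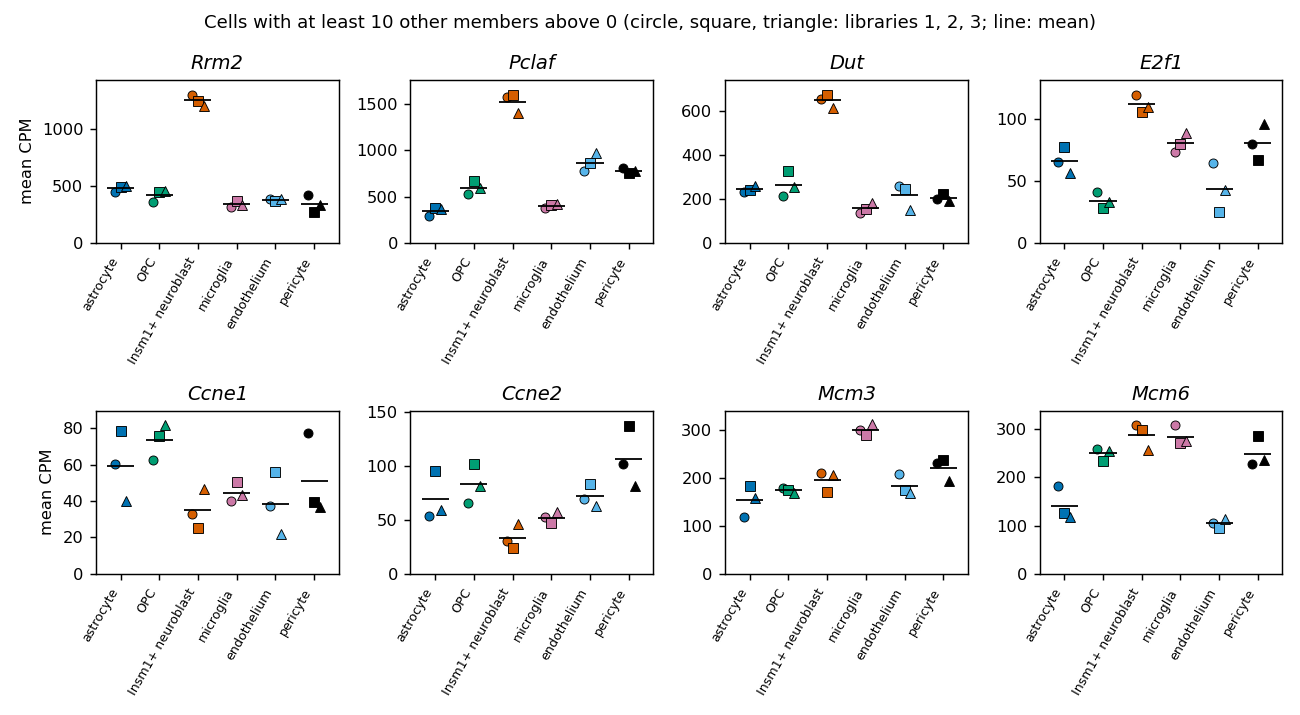
Mean CPM (y axis) of 8 members in cells with at least 10 of the other members above 0, for 6 classes; circles, squares and triangles are libraries 1, 2 and 3 and lines are means. Rrm2, Pclaf and Dut are highest in Insm1+ neuroblasts, Ccne1 and Ccne2 are low there, and E2f1 has its lowest mean in OPC, whose libraries overlap those of endothelium.

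Replication genes and the genes of G2 and mitosis, such as Top2a, Mki67 and Ccnb1, overlapped in cells but did not coincide. Of 1841 cells with at least 10 of 25 G2 and mitosis genes above 0, 1274 were also replication-high (69.2%) and 567 were not. Among replication-high cells the share that also passed that G2 and mitosis limit was 69.3% in Insm1+ neuroblasts and 71.6% in endothelium, 44.9% in OPC and in astrocytes, 43.6% in pericytes and 33.9% in microglia. These shares pool the libraries. They rest on 518 cells in Insm1+ neuroblasts but on 74 in endothelium, 8 of them from library 3. In Insm1+ neuroblasts the median number of G2 and mitosis genes above 0 was 21 in cells with 10 to 19 members and 15 in cells with 20 or more. By median OPC ran in the opposite order, with 3 and 12, as did microglia with 3 and 7. The spread was wide, and the upper quartiles did not run that way. They were 24 and 20 in Insm1+ neuroblasts, 23 and 18.25 in OPC, and 15 and 15 in microglia. The lower quartiles were 9 and 6, 1 and 6, and 1 and 4 for the same classes. No test was made between classes.

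Other genes of replication, 59 not among the members, were read in the same comparisons. Of these, 45 were tested, and 39 were higher and 1 lower in Insm1+ against Insm1- neuroblasts, with a median log2 fold of 1.13, where 25.3% of all genes were higher and 9.84% lower. Gmnn, which blocks relicensing (2.33), Tk1, a thymidine kinase (2.04), and Dbf4, the activator of the CDC7 kinase (1.87), were the largest. In OPC against astrocytes 32 were higher and 1 lower, led by the histone chaperone Nasp (1.34) and the maintenance methyltransferase Dnmt1 (1.30), beside 39.5% and 19.8% of all genes. In microglia against astrocytes 26 were higher and 5 lower, with Tk1 at 2.26 and Asf1b at 1.94, beside 24.2% and 50.3% of all genes. In endothelium against pericytes 3 were higher and 27 lower, with Pole4, a small subunit of polymerase epsilon, at -1.81, beside 23% and 38.7% of all genes. In Insm1+ neuroblasts against OPC 28 were higher and 1 lower, with Gins1 at 1.71, beside 22.6% and 42.6% of all genes. Against those same shares, all 25 G2 and mitosis genes were higher in the first-named class of the 4 comparisons other than endothelium against pericytes, where 18 were lower and 0 higher.

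The 11 genes of cell cycle exit went both ways in each of the 5 comparisons, and their counts are given beside the shares of all genes called. In Insm1+ against Insm1- neuroblasts 5 were higher, among them the CDK inhibitor genes Cdkn2c (log2 fold 1.97) and Cdkn2d (1.14), and 1 was lower, Btg1, an antiproliferative gene, at 830 against 1595 CPM (-0.94), where 25.3% of all genes were higher and 9.84% lower. In OPC against astrocytes 2 were higher and 6 lower, with the CDK inhibitor genes Cdkn1c at 1.46 and Cdkn1a at -1.35, beside 39.5% and 19.8% of all genes. In microglia against astrocytes 5 were higher and 5 lower, beside 24.2% and 50.3% of all genes. In endothelium against pericytes 3 were higher and 4 lower, beside 23% and 38.7% of all genes. Cdkn1a was at 769 against 12.4 CPM (log2 fold 5.12, SE 0.14, limma adjusted p 2.76e-19) and Btg2 at 283 against 57.0 CPM (2.12). In Insm1+ neuroblasts against OPC 9 were higher and 1 lower, with Btg1 at 3.05, beside 22.6% and 42.6% of all genes.

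Across the 13905 cells, the summed corrected counts of the members on a log scale correlated most, among genes outside the list, with Hmgb2, a chromatin protein (Pearson r 0.650), Top2a, topoisomerase II alpha (0.632), the tubulin gene Tuba1b (0.630), the condensin gene Smc2 (0.611) and the histone variant gene H2afz (0.599). Cells share library, depth and class, so these values describe co-detection and carry no test. Inside the list the value for each member with the sum of the others ran from 0.359 for Ccne1 to 0.699 for Rrm2. Cdc6, which differed strongly between cells with many and few other members, had 0.364 and was above 0 in 3.20% of cells. Pcna and Dut, with low ratios between those cells, had 0.637 and 0.593. Rrm2 was high and Rfc2 (0.421) low by both measures.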

How the data were processed

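Single-cell RNA of postnatal day 6 prefrontal cortex was read on an Illumina NovaSeq after 10x Genomics Chromium library preparation, per the labels' protocols, which also give flash freezing and Trizol. CASAVA 1.8, Cell Ranger and Seurat were used with build mm10, per the submitters' processing notes. The values deposited by the authors are natural log values, ln(1 + a whole number): all 34958786 values above 0 became whole (tolerance 1e-06) when the log was undone. These whole numbers are read as counts corrected for depth by a method not given in the sources used here, so no count model was fitted. How reads of overlapping genes or near-identical copies were assigned is also not given there.

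Members and lists were chosen with earlier results of these data known. Suspected doublets were removed with Scrublet (scanpy 1.11.5, seed 0). Corrected counts were scaled to CPM per cell and averaged per class and library. The limma model (version 3.58.1, R 4.3.3) took log2 of these means plus 10 CPM (mean-variance trend, library as a block, 12 residual degrees of freedom). The fit left out 15 class marker genes and classes under 20 cells in a library; it was tested on simulated data. Of 6 planned comparisons 5 were made: OPC against oligodendrocytes could not be fitted, with 8, 8 and 11 oligodendrocytes. Libraries share a block because all classes of a library come from the same sample. All members may be named; from each other list the text takes, per comparison, from the 3 called genes that moved most in log2 fold, and the 5 genes outside the list that correlated most. Promoters named are those of the helicase genes, Pcna and the 3 members with the largest fold between neuroblast classes. Alternatives covered the pseudocount, the filter on low values, the block, each library, the classes fitted, centring, doublets, scaling, stricter markers, the number of members that makes a cell replication-high, and thinning.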

Additional observations from a re-analysis of the deposited data

How the results depend on the processing

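Requiring a mean of 25 CPM left 21 members tested, of which 21 were called between the neuroblast classes, 20 for OPC and 21 for microglia against astrocytes, and 16 for endothelium against pericytes. The 1 member lower in OPC, E2f1, was not among the members tested under that filter. It was tested but not called with 50 CPM added, with markers of at least 2 corrected counts and without library 2. Without each library in turn the called members stayed at 34 between neuroblast classes and ranged from 29 to 32 for OPC (29 to 31 higher, 0 to 1 lower), 32 to 34 for microglia, 19 to 23 for endothelium and 28 to 32 for Insm1+ neuroblasts against OPC. With no replicate block, which removes the pairing of classes by library, the counts were 34, 32, 34, 25 and 30. Over single members and alternatives, 2059 values kept direction and call, 64 lost the call, 17 gained it and 5 uncalled ones changed sign. Without each library in turn the log2 fold for endothelium against pericytes ranged from -0.24 to 0.0113 for Dtl and from -0.43 to 4.19e-04 for Tyms, and for Insm1+ neuroblasts against OPC from -0.32 to 0.0187 for Ccne2; the sign changed without library 3 for Dtl and Tyms and without library 2 for Ccne2. Centred on the median gene, Ccne1 was at 0.19 and Ccne2 at 0.17. The cause was not tested.

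Counts over all genes fell without library 1 from 2437 higher and 947 lower to 1510 and 554 between the neuroblast classes, to 1615 and 491 without library 2, and to 1401 and 585 with only those classes fitted. With 25 CPM required, 1591 were higher there, 1262 (from 1909) lower in OPC, 3218 (from 4845) lower in microglia, 1458 (from 2218) higher in endothelium and 2663 (from 4101) lower in Insm1+ neuroblasts than OPC. With no filter 3204 were lower in OPC and 3378 higher in endothelium.

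The share of replication-high cells depends on the limit. With at least 8 members it was 5.87% in astrocytes, 22.7% in OPC and 17.7% in pericytes; with at least 15 it was 2.96%, 13.7% and 11.3%, with 35.5% in Insm1+ neuroblasts and 17.6% in microglia, and in library 3 microglia were then at 14.04%, below the 14.6% of OPC. With every cell thinned to 4000 corrected counts it was 3.28%, 16.0% and 13.1%, and 24.9% in microglia. Leaving out each library gave 4.47 to 5.41% in astrocytes, 19.2 to 20.6% in OPC, 44.6 to 53.4% in Insm1+ and 3.19 to 5.71% in Insm1- neuroblasts, 29.0 to 35.97% in microglia, 7.16 to 11.3% in endothelium, 14.95 to 16.3% in pericytes and 0% in oligodendrocytes. The median ratio of members between high and low cells ranged from 23.1 to 23.9 without each library, an alternative chosen after seeing the data. The alternatives for OPC against oligodendrocytes were not run. Weak members are limited by few cells: endothelial library 3 had 8 replication-high cells.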

Other observations

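Replication-high cells were also common outside the named classes. Of the cells that met no marker pair, 23.0%, 16.2% and 9.46% had at least 10 of the 36 members above 0 in libraries 1, 2 and 3, and the share was lowest in library 3, as in Insm1+ neuroblasts and microglia. Of those 2118 cells 361 were replication-high, which is 14.7% of all replication-high cells, and 229 held 20 or more members. Cells that met 2 or more marker pairs had shares of 22.4%, 25.8% and 23.6%. Over all cells the share was 20.2%, 18.2% and 14.4%. Library 3 also had the fewest Insm1+ neuroblasts (222, against 520 and 301) and the most Insm1- neuroblasts (389, against 245 and 123).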
